A study of Mus musculus with 84 samples.

Results

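The liver transcriptomes of 2 groups of diet-induced obese (DIO) mice were compared, those given BI 456906, an agonist of the glucagon receptor (GCGR) and the glucagon-like peptide-1 receptor (GLP-1R), at 30 nmol/kg and those given semaglutide, an agonist of GLP-1R, at 100 nmol/kg. The 12 libraries, 6 per group, were chosen by their treatment labels alone, out of 42 liver libraries and 84 libraries in the whole series. All mice were male C57BL/6J on a high-fat diet (D12492), were housed singly, were 22 weeks old when dosing began and received daily subcutaneous injections for 30 days. The other liver groups were vehicle, BI 456906 at 3, 10 and 20 nmol/kg and semaglutide at 20 nmol/kg. Each compound was represented by its highest dose, so the doses were not equal, and the compound and the dose cannot be told apart in this comparison. The comparison asks which liver transcripts differed when GCGR was engaged in addition to GLP-1R. Body weight and food intake are not recorded with the libraries, and their part in the differences was not tested. In bulk tissue, fewer cells of a type and less RNA per cell cannot be told apart.

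GCGR is a receptor of hepatocytes that couples to the stimulatory G protein, and its ligand glucagon raises cyclic AMP, activates protein kinase A and acts on transcription through CREB and its coactivators. In the liver, glucagon is known to increase the breakdown of amino acids, the synthesis of urea, glycogen breakdown and the making of glucose, and to restrain lipid synthesis. GLP-1R acts mainly in pancreatic islets and the nervous system and is very scarce in hepatocytes, so that a GLP-1R agonist reaches the liver largely through food intake, body weight and insulin.

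The recovered reads ranged from 41966200 to 45955700 per library with BI 456906 and from 30040300 to 48176900 with semaglutide, the lowest being library 81. The hepatocyte transcript Alb (albumin) was abundant in each of the 12 libraries, at 51177 to 75635 TPM, a level scaled for transcript length and for the total of each library. A pair of libraries stood apart from the rest of their groups. Library 81 (semaglutide) held the highest value of its group in Tat, Igfbp1, G6pc, Slc7a2, Slc25a51 and Rasgef1b and the lowest in Pygl, while library 70 (BI 456906) was alone in its high Cyp2a4, Cux2 and Gls2 and low Mup11. The counts below were therefore also taken without both libraries, an alternative chosen after the data were seen. Gcgr was detected at 160.1 to 184 TPM (median 166) with BI 456906 and 182 to 228 TPM (median 215) with semaglutide. Glp1r had 0 to 4 reads per library in the 12 libraries and was not tested.

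Of 48794 genes listed, 15964 had enough signal to be tested (limma/voom). A gene was called when the false discovery rate (FDR) was at most 0.05 and the log2 fold change, BI 456906 minus semaglutide, was at least 1 in size, a 2-fold difference. With BI 456906, 98 genes (0.614% of those tested) were called higher and 155 (0.971%) lower, while on FDR alone 663 (4.15%) were higher and 893 (5.59%) lower. In 83.7% of the genes past the FDR the difference was thus under 2-fold. The median log2 fold change of all genes tested was 0.01. The TPM values of the groups did not overlap in 469 genes (2.94% of those tested), among them 39 of the 98 genes called higher and 59 of the 155 called lower. Leaving out libraries 70 and 81 gave 137 genes called higher and 196 lower, and 217 of these 333 genes were among the 253 of the full comparison. Counts of gene list members below are on FDR alone and are set beside the 4.15% and 5.59% of all genes. The lists were chosen with earlier results of these data known, so these shares are a description and not a test. Where 0 members of a gene list passed in a direction, the number at an unadjusted p under 0.05 is added in brackets below, and edgeR and DESeq2 gave 0 as well unless stated. Without library 80 the genes past the FDR alone numbered 951 in place of 1556.

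**Figure D1:**
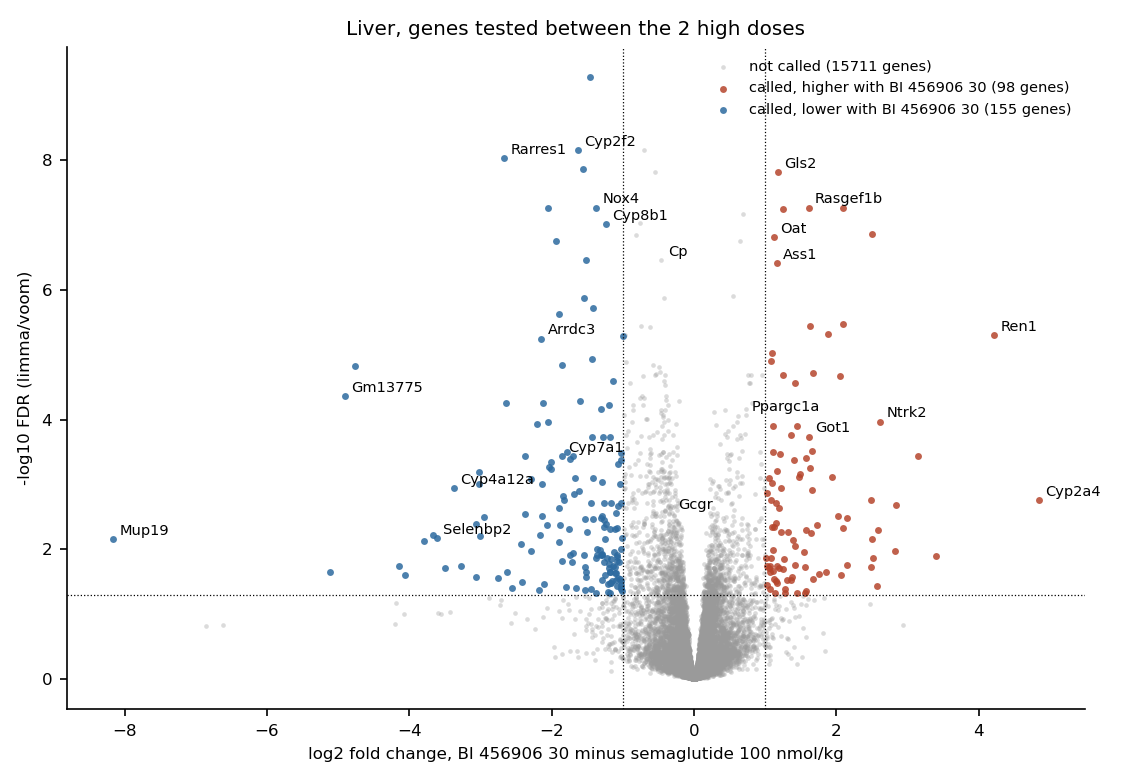
Each point is one of the 15964 genes tested, with the log2 fold change of BI 456906 30 minus semaglutide 100 nmol/kg on the x axis and -log10 of the FDR (limma/voom) on the y axis. Dotted lines mark the thresholds, and the 98 red and 155 blue points are the genes called higher and lower. The lower side reaches farther out with Mup19 at -8.17, which had 0 to 4 reads per library with BI 456906.

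Among the genes whose values did not overlap and that reached 1 TPM, the 10 largest rises were led by Cyp2a4, which encodes a steroid-hydroxylating cytochrome P450 that is higher in female mouse liver. Its level was 44.2 to 346 TPM (median 103) with BI 456906 and 0.19 to 20.2 TPM (median 7.61) with semaglutide, and the log2 fold change was 4.84 (SE 1.03, FDR = 0.00175). The highest value, from library 70, lay far above the other 5, and without that library the log2 fold change was 4.52 (FDR = 0.00388). Cyp2a4 (chr7:26307169-26315088) is nearly identical to its neighbour Cyp2a5, so reads could be assigned to either. Summed over both genes, the level was 412 ± 213 TPM with BI 456906 and 213 ± 86.5 TPM with semaglutide (SD, n = 6), and the groups overlapped. The same sum was 392 ± 102 TPM with vehicle and 214 ± 54.6 TPM with semaglutide at 20 nmol/kg. On this sum the semaglutide means, and not that of BI 456906, were the ones away from vehicle.

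Ntrk2 (chr13:58806569-59133970), the receptor of brain-derived neurotrophic factor, was low in both groups, at 0.71 to 1.91 TPM (median 1.03) against 0.1 to 0.31 TPM (median 0.17), and differed by 2.62 (SE 0.44, FDR = 0.000107) on the log2 scale. The vehicle group lay at 0.932 ± 0.344 TPM, so the semaglutide values were the ones that departed from vehicle, by -2.43 (FDR = 2.89e-05) on the log2 scale. BI 456906 differed from vehicle by 0.19 (FDR = 0.594). Ugt1a9, a glucuronosyltransferase of drug clearance, had 77.8 to 143 TPM (median 88) against 21.3 to 36 TPM (median 22.8) and a vehicle level of 53.3 ± 14.5 TPM, from which BI 456906 differed by 0.87 (FDR = 0.00184) and semaglutide by -1 (FDR = 0.00185). The log2 fold change of Ugt1a9 was 1.88 (SE 0.26, FDR = 4.72e-06), and its reads can be shared with the other Ugt1a genes, which have common exons. For Mmd2 the values were 1.93 to 3.9 TPM (median 2.6) and 0.3 to 0.98 TPM (median 0.825), with vehicle at 2.3 ± 0.457 TPM. Mmd2 thus differed by 1.94 (SE 0.38, FDR = 0.000759) between the compounds and by -1.77 (FDR = 0.000279) between semaglutide and vehicle.

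AA986860, a protein-coding gene on chromosome 1, was higher, with 6.61 to 10.9 TPM (median 8.73) after BI 456906 and 1.6 to 3.72 TPM (median 1.72) after semaglutide, a log2 fold change of 2.09 (SE 0.23, FDR = 5.39e-08). Tuba8, an alpha-tubulin, stood at 3.45 to 8 TPM (median 3.98) against 0.34 to 2.41 TPM (median 1.24), a difference of 2.05 (SE 0.31, FDR = 2.09e-05). Rasgef1b, an exchange factor for Ras-family GTPases, measured 20.8 to 29 TPM (median 24.6) with BI 456906 and 5.99 to 16.4 TPM (median 7.39) with semaglutide. Its difference of 1.61 (SE 0.18, FDR = 5.35e-08) was present although library 81 held 16.4 TPM, the highest semaglutide value. The clock gene Ciart, the aminotransferase gene Got1 and Nnmt completed the 10 and are described with their groups.

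**Figure D2:**
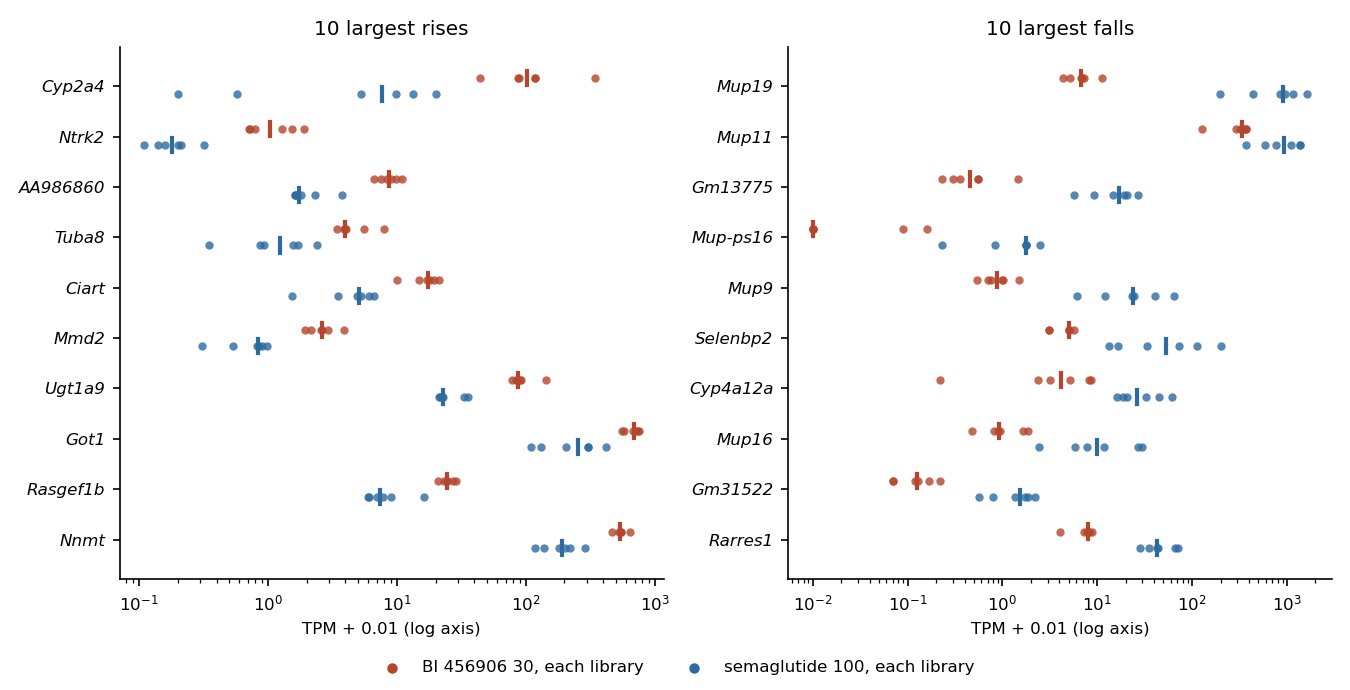
The level in each library (TPM + 0.01, log axis) of the 10 genes with the largest rises and the 10 with the largest falls among non-overlapping called genes, with BI 456906 30 in red, semaglutide 100 in blue and the median of each group as a bar. In each gene the red and blue points are separate, with Cyp2a4 reaching 346 TPM in one BI 456906 library and Mup19 staying under 12 TPM in each BI 456906 library.

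Of the 10 largest falls, 5 were major urinary protein (Mup) genes or pseudogenes, the family of secreted pheromone-binding proteins that male mouse liver makes in large amounts. Mup19 (chr4:61778324-61782269) was lower, with 4.38 to 11.3 TPM (median 6.81) after BI 456906 and 196 to 1641 TPM (median 901) after semaglutide, a log2 fold change of -8.17 (SE 2.02, FDR = 0.00694). This value was fitted on 0 to 4 counted reads per library with BI 456906 and 102 to 1125 with semaglutide, so its size is uncertain. Mup11 measured 127 to 369 TPM (median 337) against 374 to 1381 TPM (median 939), and its difference of -5.12 (SE 1.48, FDR = 0.022), fitted on 11 to 211 and 404 to 9939 counted reads per library, was larger than the TPM levels show. Gm13775, a transcript that overlaps the pseudogene Mup-ps16 and lies next to Mup19, had 0.22 to 1.44 TPM (median 0.445) with BI 456906 and 5.68 to 26.9 TPM (median 17) with semaglutide, and its log2 fold change was -4.9 (SE 0.77, FDR = 4.3e-05). Mup9 and Mup-ps16 were lower at -3.8 (SE 0.95, FDR = 0.00748) and -4.77 (SE 0.7, FDR = 1.51e-05) and Mup16 at -3.07 (SE 0.91, FDR = 0.0267). Mup9 had 0 to 7 reads per library with BI 456906 and 12 to 117 with semaglutide. Mup genes are nearly identical, and their reads can be assigned to any copy. Of 22 Mup genes and pseudogenes tested, 11 passed the FDR and each was lower with BI 456906, whereas 11 did not pass, among them Mup3 at -0.63 (FDR = 0.106), Mup7 at -4.18 (FDR = 0.0683) and Mup17 at -6.86 (FDR = 0.154). Summed over the 49 genes and pseudogenes, which does not depend on the copy, the level was 7595 ± 1917 TPM with BI 456906 and 17628 ± 6878 TPM with semaglutide (SD, n = 6). These sums ranged over 4104 to 9298 and 9351 to 25714 TPM and were separate by a narrow margin, while vehicle had 13239 ± 3722 TPM. The call of Mup16 ended without library 68, 69, 71 or 80 (each left out alone), with an FDR of up to 0.0596.

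Rarres1 (chr3:67478972-67515523), a retinoid-responsive gene, was 4.04 to 8.76 TPM (median 7.99) with BI 456906 and 28 to 71.4 TPM (median 42.9) with semaglutide, a log2 fold change of -2.67 (SE 0.27, FDR = 9.31e-09). Selenbp2, a selenium-binding protein that is higher in males, had 3.1 to 5.75 TPM (median 5) against 13.3 to 204 TPM (median 52.9) and a difference of -3.61 (SE 0.89, FDR = 0.00678). Its near copy Selenbp1 can share its reads, and the sum of both was 213 ± 16.2 TPM against 289 ± 64.4 TPM (SD, n = 6), with overlapping groups. Cyp4a12a (chr4:115299046-115332815), the androgen-dependent fatty acid hydroxylase of male liver, stood at 0.21 to 8.51 TPM (median 4.17) with BI 456906 and 16.2 to 61.2 TPM (median 26.4) with semaglutide. The difference of Cyp4a12a was -3.37 (SE 0.69, FDR = 0.00114), and the sum with its copy Cyp4a12b separated the groups as well, at 0.24 to 13.1 and 17.1 to 80.6 TPM. Gm31522, a long non-coding RNA of chromosome 11, had 0.06 to 0.21 TPM (median 0.115) and 0.56 to 2.22 TPM (median 1.52), a log2 fold change of -3.06 (SE 0.71, FDR = 0.00407).

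The genes of GCGR and cyclic AMP signaling moved in both directions. Of 34 tested, 7 (20.6%) were higher and 5 (14.7%) lower on FDR alone, beside 4.15% and 5.59% of all genes (5 to 7 and 3 to 5 when 1 library was left out, the fewest lower ones without library 68, 69 or 80), and the median log2 fold change was 0.04 beside 0.01 for all genes. Gcgr itself was lower with BI 456906, at -0.31 (SE 0.07, FDR = 0.0028) on the log2 scale. Ppargc1a (chr5:51454250-51567726), the coactivator PGC-1alpha that glucagon is known to induce through CREB, was higher at 5.09 to 7.68 TPM (median 7.44) against 3.25 to 4.65 TPM (median 4.33), a difference of 0.73 (SE 0.12, FDR = 8.63e-05). Sik1, a kinase induced by cyclic AMP that restrains the CREB coactivators, was 14.7 to 26.6 TPM (median 21.8) against 4.04 to 18.9 TPM (median 7.72), and despite overlapping values its difference of 1.4 (SE 0.26, FDR = 0.000421) passed. The immediate early gene Nr4a1 was 3.59 to 30.0 TPM (median 6.71) against 0.71 to 8.47 TPM (median 1.29), with library 72 at the top of the one group and library 82 of the other, and its difference was 2.82 (SE 0.73, FDR = 0.0108). Crem, the cyclic AMP-responsive repressor, was higher by 0.39 (FDR = 0.0172), a call lost without library 67 or 84 (FDR up to 0.0725), and the CREB coactivator Crtc2 by 0.19 (FDR = 0.0246), lost without library 69 or 80 (FDR up to 0.067). Arrdc3, an arrestin-domain protein that acts on adrenergic receptor and insulin signaling, was lower at 5.57 to 7.99 TPM (median 6.57) against 10.4 to 59.2 TPM (median 27.6), a difference of -2.15 (SE 0.3, FDR = 5.62e-06). The groups of Ppargc1a and Arrdc3 did not overlap, and those of Sik1 and Nr4a1 did. Gnas, the stimulatory G protein subunit, was lower at -0.18 (FDR = 0.00501). Prkaca, the catalytic subunit of protein kinase A, had -0.18 (FDR = 0.0398) and kept its call only without library 70, 81 or 82, with an FDR of up to 0.132 otherwise. The phosphodiesterase Pde4b measured 3.16 to 9.51 TPM (median 5.81) and 2.24 to 4.52 TPM (median 3.79) and did not pass, at 0.64 (SE 0.23, FDR = 0.0681), but passed with edgeR and DESeq2 and without library 68 (FDR = 0.0215).

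The windows around the transcription start of genes that differed were read for the cyclic AMP response element, to show where the sequence that CREB binds lies beside genes of this comparison. The RefSeq table for GRCm38.p6 gives 300 bases per start, 250 before and 50 after, and held 110 of the 145 genes of the named set. The full element TGACGTCA was present in 3 of 58 genes called higher (5.17%) and 0 of 100 called lower, beside 3.37% of genes tested and 2.03% of all genes in the table. Its core TGACG, on either strand and within the full element as well, occurred in 29.3% of genes called higher, 16% of those called lower, 33.4% of genes tested and 23% of all genes in the table. On FDR alone the core was found for 39.4% of the higher and 26.1% of the lower genes. The STAT5 motif TTCNNNGAA was present in 3.45% of genes called higher, 10% of those called lower and 8.38% of genes tested. These shares are a description, and a match in the letters is not a binding site. Printed below are the windows of Btg2 and Slc25a25, which with Gm15756 (named, like both, after their values were seen) were the genes called higher that hold the full element, and of Ppargc1a, Slc38a2 and Rasgef1b, which were higher and hold the core, on the strand of the gene, with the matched letters of either strand in capitals.
Btg2, chr1:134079106-134079405 (- strand): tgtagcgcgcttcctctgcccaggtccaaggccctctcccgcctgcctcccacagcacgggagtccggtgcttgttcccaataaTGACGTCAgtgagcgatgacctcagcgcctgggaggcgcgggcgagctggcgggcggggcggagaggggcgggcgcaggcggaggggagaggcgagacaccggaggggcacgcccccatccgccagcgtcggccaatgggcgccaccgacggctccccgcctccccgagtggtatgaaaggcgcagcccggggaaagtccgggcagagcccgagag
Slc25a25, chr2:32424017-32424316 (- strand): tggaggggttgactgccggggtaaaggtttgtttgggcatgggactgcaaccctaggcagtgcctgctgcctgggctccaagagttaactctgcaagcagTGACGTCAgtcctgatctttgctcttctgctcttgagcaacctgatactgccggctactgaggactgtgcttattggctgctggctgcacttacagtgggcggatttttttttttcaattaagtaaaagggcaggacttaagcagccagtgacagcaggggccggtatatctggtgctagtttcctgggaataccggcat
Ppargc1a, chr5:51567676-51567975 (- strand): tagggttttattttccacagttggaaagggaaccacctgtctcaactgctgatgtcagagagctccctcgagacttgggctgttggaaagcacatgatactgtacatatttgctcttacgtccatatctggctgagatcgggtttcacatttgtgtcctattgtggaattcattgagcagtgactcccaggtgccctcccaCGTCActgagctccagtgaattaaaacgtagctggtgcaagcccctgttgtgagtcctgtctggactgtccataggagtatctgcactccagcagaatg
Slc38a2, chr15:96699679-96699978 (- strand): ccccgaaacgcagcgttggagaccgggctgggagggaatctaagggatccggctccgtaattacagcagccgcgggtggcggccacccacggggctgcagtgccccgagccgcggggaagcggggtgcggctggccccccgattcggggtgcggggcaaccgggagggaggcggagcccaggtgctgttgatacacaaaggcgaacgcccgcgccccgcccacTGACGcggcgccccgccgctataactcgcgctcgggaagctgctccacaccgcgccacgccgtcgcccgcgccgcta
Rasgef1b, chr5:99252878-99253177 (- strand): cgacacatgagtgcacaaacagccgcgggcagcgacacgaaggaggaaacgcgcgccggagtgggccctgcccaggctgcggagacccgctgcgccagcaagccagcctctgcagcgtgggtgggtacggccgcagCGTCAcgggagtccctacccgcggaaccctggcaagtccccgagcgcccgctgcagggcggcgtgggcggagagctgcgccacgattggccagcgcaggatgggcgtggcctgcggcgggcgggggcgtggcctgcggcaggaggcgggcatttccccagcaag

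The antiproliferative gene Btg2 was 13 to 67.1 TPM (median 38.8) with BI 456906 and 7.03 to 35.7 TPM (median 10.1) with semaglutide, a log2 fold change of 1.41 (SE 0.39, FDR = 0.0172), and the groups overlapped. Without library 72 its FDR was 0.0555. Slc25a25, a mitochondrial ATP-magnesium carrier, was 281 to 370.3 TPM (median 319) against 102 to 267 TPM (median 136), a difference of 1.05 (SE 0.21, FDR = 0.000783). Library 82 held the highest semaglutide value of Btg2, as of Nr4a1. Both genes were named after their values were seen, for the element in their windows. The element of Btg2 began 166 bases and that of Slc25a25 150 bases before the start, and the core in Ppargc1a began 49 bases before it.

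Genes of amino acid breakdown, amino acid transport and urea synthesis that passed the FDR were mostly higher with BI 456906. Of 54 breakdown genes tested, 17 (31.5%, beside 4.15% of all genes) were higher and 2 (3.7%, beside 5.59%) lower. The median log2 fold change was 0.17, and leaving out any 1 library left 13 to 18 higher. The list holds Sds, Gls2, Got1, Asns and Ddah1, which the paper reported from these livers, so its share is not an independent result. Gls2 (chr10:128194457-128210004), the liver glutaminase that releases ammonia from glutamine, stood at 353 to 544 TPM (median 398) with BI 456906 and 143 to 219 TPM (median 192) with semaglutide. Its difference of 1.17 (SE 0.12, FDR = 1.53e-08) was 1.1 (FDR = 1.06e-07) without library 70, which held 544 TPM. Oat (chr7:132557478-132576398), ornithine aminotransferase, had 607 to 793 TPM (median 729) against 285 to 385 TPM (median 327), a log2 fold change of 1.12 (SE 0.13, FDR = 1.53e-07). The cytosolic aspartate aminotransferase Got1 measured 555 to 756 TPM (median 699.5) and 111 to 417 TPM (median 255), a difference of 1.61 (SE 0.28, FDR = 0.000182). In Sds, the serine dehydratase, the values were 566 to 703 TPM (median 638) against 127 to 388 TPM (median 239), and the difference was 1.44 (SE 0.25, FDR = 0.000126). None of these 4 genes had overlapping groups. The largest rise of the list, 2.48, was that of Asns, which makes asparagine and is described with the stress response.

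Tyrosine aminotransferase, Tat, a classical target of glucagon and glucocorticoids, was 2118 to 3362 TPM (median 3005) with BI 456906 and 663 to 2711 TPM (median 1198) with semaglutide, where library 81 held 2711 TPM and the groups overlapped. The log2 fold change of Tat was 1.13 (SE 0.26, FDR = 0.00455) and 1.37, again past the FDR, without that library. Other breakdown genes that were higher were Agxt (alanine-glyoxylate aminotransferase) at 0.82 (FDR = 5.5e-05), Sdsl, a relative of Sds, at 1.08 (FDR = 0.00173) and Aass, of lysine breakdown, at 0.72 (FDR = 0.0172), whose call ended without library 82 (FDR = 0.0576). Lower ones were Ddah1, which breaks down methylated arginines, at -1.03 (SE 0.19, FDR = 0.000418), and Gcsh, of the glycine cleavage system, at -0.3 (FDR = 0.0122), lost without library 71 (FDR = 0.0526). Without both libraries 70 and 81 the breakdown genes that were lower numbered 6.

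The urea cycle and ammonia group shares Gls2 with the breakdown list and holds Ass1. The paper reported both from these livers, so the share of this group is not an independent result. Of its 14 genes, 5 (35.7%, beside 4.15% of all genes) were higher and 2 (14.3%, beside 5.59%) lower, with a median of 0.15. Ass1 (chr2:31470207-31520672), argininosuccinate synthase, was higher, with 4967 to 5342 TPM (median 5133) after BI 456906 and 1649 to 2950.2 TPM (median 2441) after semaglutide, a difference of 1.16 (SE 0.14, FDR = 3.82e-07). With the pseudogene Gm5424, which can take its reads, the sums were 5205 ± 145 TPM with BI 456906 and 2354 ± 484 TPM with semaglutide (SD, n = 6). The mitochondrial ornithine carrier Slc25a15 measured 178 to 239 TPM (median 192) against 92.5 to 162 TPM (median 122), a difference of 0.73 (SE 0.12, FDR = 6.87e-05). Neither Ass1 nor Slc25a15 had overlapping groups. Arg1 (arginase) was higher by 0.67 (FDR = 0.00334) and Asl (argininosuccinate lyase) by 0.56 (FDR = 0.0283), a call lost without library 68, 72, 80 or 82 (FDR up to 0.0997). Glul, the glutamine synthetase of hepatocytes around the central vein, was lower at 392 to 512 TPM (median 441) against 530.1 to 756 TPM (median 652), a log2 fold change of -0.58 (SE 0.1, FDR = 0.000175). The channel Aqp9, which carries glycerol and urea, was lower at -0.46 (FDR = 0.00176).

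For amino acid transport, 8 of 22 genes (36.4%, beside 4.15% of all genes) were higher and 0 lower (unadjusted: 2), with a median of 0.12. Without library 70 or 81, 1 was lower. Slc7a2, the cationic amino acid transporter of liver, was 223 to 276 TPM (median 228) with BI 456906 and 75.9 to 184 TPM (median 92.2) with semaglutide, a log2 fold change of 1.24 (SE 0.19, FDR = 2.02e-05). Slc38a2, the sodium-coupled neutral amino acid transporter SNAT2, had 70.4 to 102 TPM (median 85.7) against 35.9 to 63.2 TPM (median 48.5), a difference of 0.76 (SE 0.18, FDR = 0.00426). Slc38a3, the glutamine transporter SNAT3, was 589 to 822 TPM (median 709) against 399 to 539 TPM (median 488), a difference of 0.55 (SE 0.09, FDR = 0.000126). The groups of these 3 transporters did not overlap. The neutral amino acid exchanger Slc1a4 was higher by 0.95 (SE 0.23, FDR = 0.00705), with overlapping groups.

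Among 21 genes of the methionine cycle and methyl transfer, 5 (23.8%, beside 4.15% of all genes) were higher and 1 (4.76%, near the 5.59% of all genes) lower. The median was 0.09, and 0 to 3 were lower when 1 library was left out, the most without library 82. The list holds Gnmt and Nnmt, which the paper reported from these livers, so its share is not an independent result. The enzyme genes Mat1a (S-adenosylmethionine synthesis), Gnmt (methyl transfer to glycine) and Cbs (removal of homocysteine) were higher by 0.72 (SE 0.13, FDR = 0.000166), 0.76 (SE 0.11, FDR = 2.02e-05) and 0.6 (SE 0.1, FDR = 0.000107), each without overlap. Gnmt was 3328 to 3712 TPM (median 3499.9) with BI 456906 and 1607 to 2510.0 TPM (median 2052) with semaglutide. Nnmt, which methylates nicotinamide, was 468 to 651 TPM (median 545) against 118 to 289 TPM (median 193), a difference of 1.57 (SE 0.29, FDR = 0.000396). In the group of NAD synthesis and use, which shares Nnmt, 2 of 23 genes (8.7%, beside 4.15%) were higher and 5 (21.7%, beside 5.59%) lower. The mitochondrial NAD carrier Slc25a51 was higher by 0.98 (SE 0.21, FDR = 0.00234), and lower were the aldehyde oxidase Aox3 at -1.14 (SE 0.17, FDR = 2.52e-05), the NAD-synthesizing enzyme Nampt at -0.31 (FDR = 0.00601) and the mitochondrial deacylase Sirt3 at -0.24 (FDR = 0.00174).

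**Figure D3:**
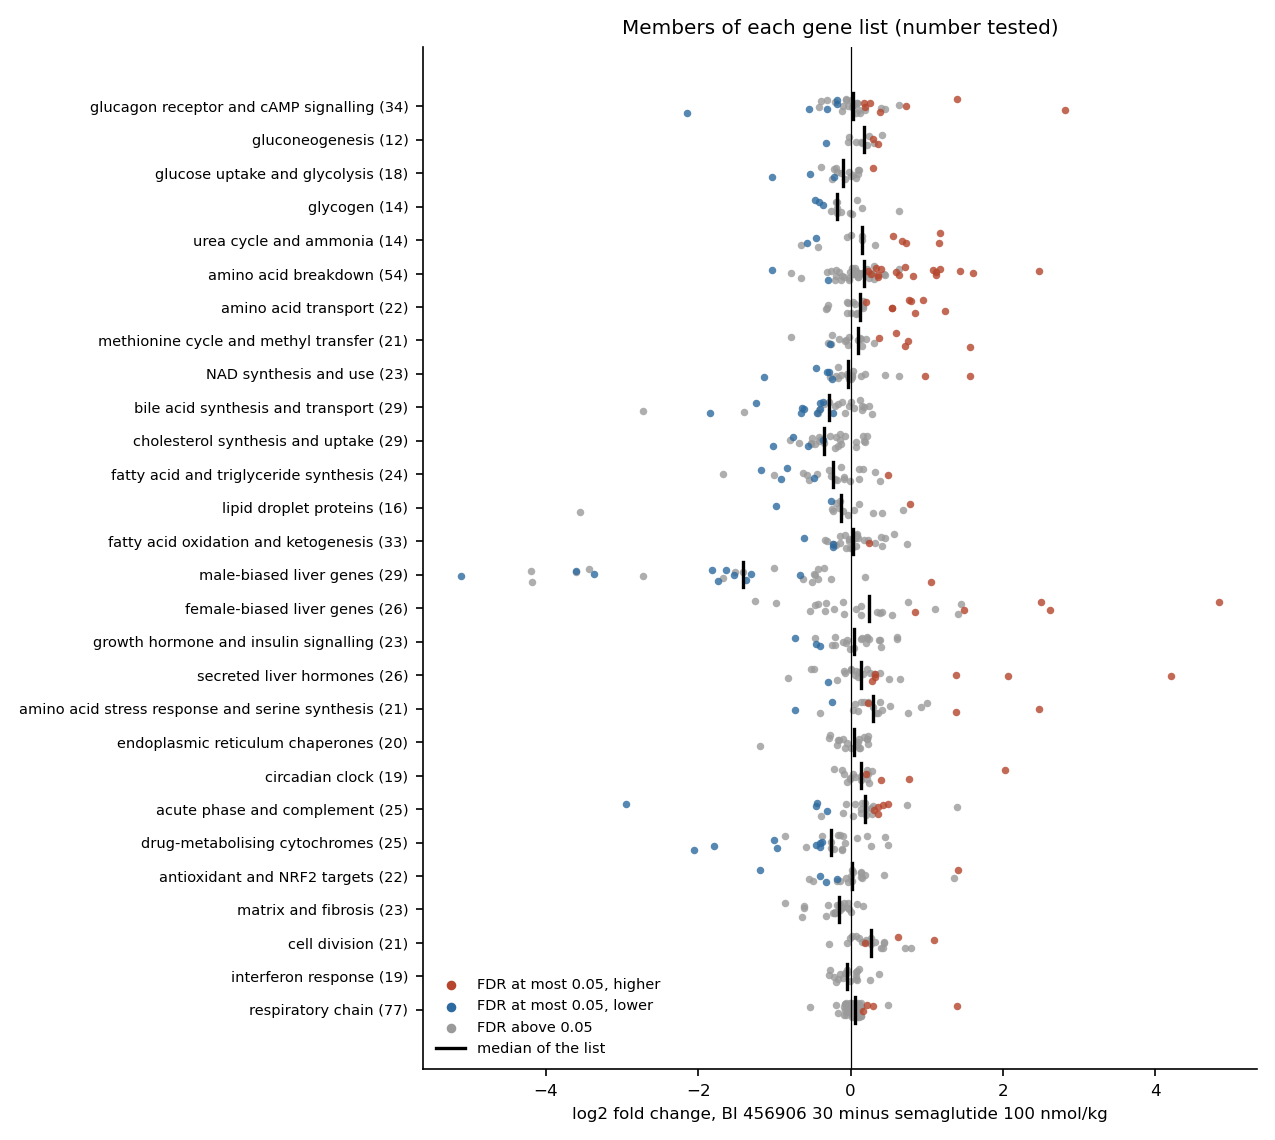
The log2 fold change (x axis, BI 456906 30 minus semaglutide 100 nmol/kg) of each tested member of 28 gene lists (rows, with the number tested), coloured red (higher) or blue (lower) if it passed the FDR of 0.05 in limma/voom, and a bar at each list's median. The amino acid lists hold mostly red points among those that passed, the bile acid and cytochrome lists blue ones, and the male-biased list has the lowest median, -1.42.

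Of 12 gluconeogenesis genes tested, 2 (16.7%) were higher and 1 (8.33%) was lower, beside 4.15% and 5.59% of all genes, with a median of 0.18. The higher ones were Fbp1, fructose bisphosphatase, at 0.3 (SE 0.08, FDR = 0.0207), and Pck2, the mitochondrial carboxykinase, at 0.36 (SE 0.11, FDR = 0.0228), and the lower one was Pcx, pyruvate carboxylase, at -0.32 (SE 0.08, FDR = 0.00549). The Fbp1 call ended without library 69 or 84 (FDR up to 0.0587) and the Pck2 call without library 68, 71 or 80 (FDR up to 0.0829). Pck1, the cytosolic carboxykinase, was 2485 to 3322 TPM (median 3177) with BI 456906 and 1583 to 2988 TPM (median 2309) with semaglutide and did not pass, at 0.41 (SE 0.17, FDR = 0.12) with a 95% interval 0.07 to 0.76. Without library 81 the difference in Pck1 was 0.5 (FDR = 0.0488). G6pc, glucose-6-phosphatase, was 306 to 432 TPM (median 377) against 254 to 564 TPM (median 299), a difference of 0.14 (SE 0.17, FDR = 0.668) with a 95% interval -0.21 to 0.48.

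Glycolysis and glycogen genes that passed were mostly lower. Of 18 genes of glucose uptake and glycolysis, 3 (16.7%, beside 5.59% of all genes) were lower and 1 (5.56%, near the 4.15% of all genes) higher. Of 14 glycogen genes, 3 (21.4%) were lower and 0 higher (unadjusted: 1). The glycogen count fell to 1 lower without library 84, and the glycolysis count rose to 5 lower without library 81. Without library 83 there was also 1 higher glycogen gene. Pklr, the liver pyruvate kinase, was 47.4 to 87 TPM (median 56.2) with BI 456906 and 49 to 173 TPM (median 132) with semaglutide, a log2 fold change of -1.03 (SE 0.19, FDR = 0.000329) with overlapping groups. Mlxipl, which encodes the carbohydrate-sensing factor ChREBP that drives Pklr, was lower at -0.53 (SE 0.12, FDR = 0.00303). Pygl, the liver glycogen phosphorylase, was lower at -0.47 (SE 0.11, FDR = 0.00596), Pdha1, a subunit of pyruvate dehydrogenase, at -0.22 (FDR = 0.0146), lost without library 79 or 84 (FDR up to 0.0586), Phka2, a subunit of phosphorylase kinase, at -0.41 (FDR = 0.0195), lost without library 72, 79, 80 or 84 (FDR up to 0.0693), and the branching enzyme Gbe1 at -0.37 (FDR = 0.0146), which lost its call without library 84 (FDR = 0.0662). The 1 higher glycolytic gene, Ldha at 0.3 (FDR = 0.0474), lost its call without any one of libraries 67, 68, 69, 71, 72, 79, 82, 83 and 84, with an FDR of up to 0.153.

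Bile acid genes that passed were all lower with BI 456906. Of 29 tested, 10 (34.5%, beside 5.59% of all genes) were lower and 0 higher (unadjusted: 1), with a median of -0.28, and 10 to 13 were lower when any 1 library was left out. Cyp7a1 (chr4:6265612-6275633), the rate-limiting enzyme of bile acid synthesis, was 11.4 to 21 TPM (median 15.3) with BI 456906 and 21.2 to 174 TPM (median 51.5) with semaglutide. Its log2 fold change was -1.85 (SE 0.34, FDR = 0.00037) and -1.52 (FDR = 0.00222) without library 84, which held 174 TPM. Cyp8b1 (chr9:121914356-121916305), the enzyme that makes cholic acid, had 151 to 416 TPM (median 287) against 562 to 859 TPM (median 637), a difference of -1.24 (SE 0.14, FDR = 9.6e-08). Cyp27a1, of the alternative pathway, was 279 to 468 TPM (median 424) against 556 to 713 TPM (median 598), a difference of -0.64 (SE 0.11, FDR = 0.000185). In these 3 enzymes each BI 456906 library lay below each semaglutide library, in Cyp7a1 by a narrow margin. The conjugating enzyme Baat was lower at -0.4 (SE 0.06, FDR = 5.02e-05), the uptake transporters Slc10a1 at -0.36 (FDR = 0.00951) and Slco1b2 at -0.62 (FDR = 0.000396), the export pump Abcb11 at -0.45 (FDR = 0.0068), and the bile acid receptor Nr1h4 (FXR) at -0.22 (FDR = 0.00424). Synthesis, conjugation, transport and receptor were thus each represented among the 10.

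In cholesterol synthesis and uptake, 4 of 29 genes (13.8%, beside 5.59% of all genes) were lower and 0 higher (unadjusted: 1), with a median of -0.35. The lower ones numbered 2 without library 80 and 7 without library 81. The lipoprotein receptor Scarb1 was lower at -0.36 (SE 0.08, FDR = 0.00173) and Soat2, which esterifies cholesterol, at -0.56 (SE 0.13, FDR = 0.00486). The synthesis genes Fdps at -1.02 (FDR = 0.0402) and Fdft1 at -0.76 (FDR = 0.0194) lost their calls without library 80 (FDR = 0.111 and 0.072), and Fdps also without any one of libraries 68, 70, 72, 79 and 84.

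Fatty acid and triglyceride synthesis gave 4 lower (16.7%, beside 5.59% of all genes) and 1 higher (4.17%, near the 4.15% of all genes) of 24 genes. The median was -0.23, and the lower ones numbered 2 without library 79, 80 or 84 and 7 without library 81. Malic enzyme, Me1, was 64.4 to 83.5 TPM (median 75.8) with BI 456906 and 87.2 to 129 TPM (median 107) with semaglutide, a difference of -0.47 (SE 0.12, FDR = 0.00601), and Elovl6, which elongates fatty acids, was lower at -0.91 (FDR = 0.0242), a call lost without library 71, 72, 79, 80 or 82 (FDR up to 0.0703). Pparg was lower at -1.18 (SE 0.34, FDR = 0.0226), a call that ended without library 67, 68, 80 or 84 (FDR up to 0.0637), and Acss2 at -0.84 (FDR = 0.0194), lost without library 79 or 84 (FDR up to 0.0736). The desaturase Fads1 was the 1 higher gene, at 0.49 (SE 0.13, FDR = 0.0104), with 2 higher without library 71. Fasn, fatty acid synthase, had 58.7 to 72.1 TPM (median 65) against 57.8 to 102 TPM (median 79.5) and Srebf1, the lipogenic factor SREBP-1, 31.5 to 60.1 TPM (median 36.7) against 22.3 to 65.5 TPM (median 48.6). Neither passed, at -0.25 (SE 0.18, FDR = 0.404) and -0.2 (SE 0.21, FDR = 0.594).

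For lipid droplets, 1 of 16 genes (6.25%, near the 4.15% of all genes) was higher and 2 (12.5%, beside 5.59%) were lower. Without library 81 or 83, 2 were higher. Plin5, which links droplets to mitochondria, was 199 to 331 TPM (median 312) with BI 456906 and 137 to 252 TPM (median 148) with semaglutide, a difference of 0.79 (SE 0.21, FDR = 0.0123) with overlapping groups. Cideb, which promotes the fusion of droplets and the secretion of lipoproteins, was lower at -0.25 (SE 0.06, FDR = 0.00681). Fitm1, of droplet formation, was 16.2 to 22.7 TPM (median 19.8) against 21.9 to 57 TPM (median 42.7), a difference of -0.98 (SE 0.19, FDR = 0.000765). Of 33 fatty acid oxidation and ketogenesis genes, 1 (3.03%, beside 4.15% of all genes) was higher, Acadl at 0.24 (SE 0.06, FDR = 0.0107), and without library 81 there were 3. Among the 3 lower genes (9.09%, beside 5.59%), Vnn1 at -0.62 (FDR = 0.0216) lost its call without library 71, 80 or 82 and Acaa1a at -0.23 (FDR = 0.0416) without library 67, 70, 71, 72, 79, 80, 81 or 82, with FDRs of up to 0.0774 and 0.0991. Cpt1a, which gates fatty acid entry into mitochondria, was 244 to 301 TPM (median 286) against 249.8 to 345 TPM (median 273), a difference of -0.02 (SE 0.09, FDR = 0.924) with a 95% interval -0.19 to 0.16. In the respiratory chain 4 of 77 genes (5.19%, near the 4.15% of all genes) were higher and 0 lower (unadjusted: 2), 1 with DESeq2, with a median of 0.05, and 2 to 6 were higher when 1 library was left out, the fewest without library 68, 82 or 84. Cox6b2 was one of them, at 1.39 (SE 0.35, FDR = 0.00717), a call not kept with edgeR or DESeq2. Atp5g1 was higher by 0.29 (SE 0.08, FDR = 0.016). The other two, Ndufb7 at 0.21 (FDR = 0.0217) and Atp5d at 0.17 (FDR = 0.0462), lost their calls without library 68, 82 or 84, and Atp5d also without any one of libraries 67, 69, 70, 72, 79, 80 and 81.

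Genes that differ between male and female mouse liver are known to be set by pulsatile growth hormone through STAT5. Of 29 male-biased genes tested, 10 (34.5%, beside 5.59% of all genes) were lower and 1 (3.45%, near the 4.15% of all genes) higher. Of the 10, 9 were called, and the median log2 fold change of the list was -1.42, the lowest of the 28 lists. Without library 83 there were 14 lower. Cyp2f2 was 69.5 to 176 TPM (median 168) with BI 456906 and 369 to 500.4 TPM (median 463) with semaglutide, a difference of -1.63 (SE 0.16, FDR = 6.99e-09). Nox4, an NADPH oxidase, had 5.55 to 7.13 TPM (median 5.8) against 10.9 to 17.9 TPM (median 16.1), a difference of -1.38 (SE 0.15, FDR = 5.35e-08). Cyp2d9, a male-specific steroid hydroxylase, was 159 to 427 TPM (median 327) against 545 to 1108 TPM (median 715), a difference of -1.3 (SE 0.21, FDR = 6.87e-05), and Serpina12, which encodes vaspin, 1.6 to 3.94 TPM (median 2.46) against 5.44 to 17.4 TPM (median 8.49), a difference of -1.74 (SE 0.33, FDR = 0.000406). The groups of these 4 genes did not overlap. The list also holds Cyp4a12a, Selenbp2 and Mup11, described above, and its 1 higher gene was Gstp2 at 1.06 (FDR = 0.0181), which lost its call without library 68, 79, 80 or 84. Mup1, Mup3, Mup7, Mup12, Mup20, Mup21 and Cyp4a12b are members as well. Such copies can share reads, so the members behind the count and the median are not independent. The paper named Nox4 and Ihh, both on this list, from these livers, so the share is not an independent result.

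Of 26 female-biased genes tested, 5 (19.2%, beside 4.15% of all genes) were higher and 0 lower (unadjusted: 0) in the full comparison, with a median of 0.24. The same numbers passed when any 1 library was left out. Besides Cyp2a4 and Ntrk2, these were Cyp17a1 (17-alpha-hydroxylase), Tox and Cux2. Cyp17a1 was 138 to 188 TPM (median 153) with BI 456906 and 27.3 to 70.9 TPM (median 64.8) with semaglutide, a difference of 1.49 (SE 0.29, FDR = 0.000682). Cux2, a repressor of male-biased genes in female liver, had 1.22 to 24 TPM (median 6.99) against 0.26 to 10.7 TPM (median 0.77), overlapping groups and a difference of 2.5 (SE 0.62, FDR = 0.00687). Without library 70, which held 24 TPM, the difference in Cux2 was 2.13 (FDR = 0.0148), and the call was lost with edgeR and DESeq2. A further 8 female-biased genes, among them Cyp3a41a, Cyp3a41b and Sult2a1, had no more than 16 reads in any of the 12 libraries and were not tested.

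Growth hormone and insulin signaling genes gave, of 23, 3 lower (13%, beside 5.59% of all genes) and 0 higher (unadjusted: 4), 2 with DESeq2. The median was 0.05, and without library 71 there were 3 higher. Trib3, a pseudokinase that inhibits AKT, was 2.21 to 3.19 TPM (median 2.64) with BI 456906 and 3.42 to 5.31 TPM (median 4.24) with semaglutide, a difference of -0.74 (SE 0.15, FDR = 0.00135). Stat5a at -0.45 (FDR = 0.0227) and Stat5b at -0.41 (FDR = 0.0406) were lower by less than 2-fold, and their calls ended, respectively, without library 67, 79, 80 or 84 (FDR up to 0.0748) and without library 67, 68, 69, 71, 72, 79, 80, 82 or 84 (FDR up to 0.108). Igf1, the growth hormone target, was 408 to 523 TPM (median 486) against 342 to 395 TPM (median 375) without overlap, yet its difference of 0.39 (SE 0.14, FDR = 0.0585) did not pass. The FDR of Igf1 fell under the threshold in 8 of 24 alternatives, among them without library 71 (FDR = 0.0295) or 83 (FDR = 0.0374). Igfbp1, which binds IGF-1 and rises in fasting, was 356 to 801 TPM (median 604) against 211 to 1298 TPM (median 291), a difference of 0.61 (SE 0.33, FDR = 0.259) that became 0.97 (FDR = 0.0235) without library 81.

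Among 26 secreted liver hormones, 6 (23.1%, beside 4.15% of all genes) were higher and 1 (3.85%, near the 5.59% of all genes) lower. When 1 library was left out 3 to 6 were higher, the fewest without library 80. There were 2 lower without any one of libraries 70, 71, 81, 82 and 83. Ren1, the protease renin, was barely expressed at 0.28 to 0.75 TPM (median 0.565) with BI 456906 and 0 to 0.19 TPM (median 0.01) with semaglutide, which is 15 to 32 and 0 to 8 reads per library, and its log2 fold change was 4.22 (SE 0.58, FDR = 4.91e-06). Its substrate Agt (angiotensinogen) was higher by 0.32 (SE 0.08, FDR = 0.00947) and Ahsg (fetuin-A) by 0.32 (SE 0.07, FDR = 0.0031), whereas Fetub (fetuin-B) was lower at -0.3 (SE 0.08, FDR = 0.0156). Fgf21, a fasting and stress hormone, was 27.6 to 50.4 TPM (median 40.9) against 17.6 to 57.5 TPM (median 35.9), a difference of 0.1 (SE 0.23, FDR = 0.84) with a 95% interval -0.36 to 0.56. Gdf15, a stress hormone that reduces appetite, had 15.2 to 44.2 TPM (median 25.3) against 6.46 to 19.8 TPM (median 9.12) with overlap. Its difference of 1.38 (SE 0.41, FDR = 0.0269) lost its call without library 67, 69, 72, 79, 80 or 83 (FDR up to 0.0705).

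The amino acid stress response and serine synthesis list, which centres on ATF4, gave 3 higher (Asns, Gdf15 and Atf4) and 2 lower (Trib3 and Eif4ebp1) of 21 genes. These are 14.3% and 9.52%, beside 4.15% and 5.59% of all genes, and without library 69, 72 or 84 there was 1 higher. Asns, asparagine synthetase, showed a log2 fold change of 2.48 (SE 0.7, FDR = 0.0185) on 23 to 320 reads per library with BI 456906 and 8 to 37 with semaglutide, and its FDR was 0.053 without library 84. In the circadian clock list 4 of 19 genes (21.1%, beside 4.15% of all genes) were higher and 0 lower (unadjusted: 0). Ciart, a repressor of the clock, was 10.0 to 21.4 TPM (median 17.6) with BI 456906 and 1.54 to 6.62 TPM (median 5.12) with semaglutide, a difference of 2.02 (SE 0.46, FDR = 0.00307). Per1, a clock gene that cyclic AMP also induces, had 30.8 to 39.1 TPM (median 34.7) against 16 to 26.8 TPM (median 19.1), a difference of 0.77 (SE 0.19, FDR = 0.00553). Both genes had separate groups, and Cry1 was higher by 0.4 (SE 0.1, FDR = 0.0096). Arntl, the activator BMAL1, had 0.21 (FDR = 0.0336) and lost its call without any one of libraries 67, 68, 69, 71, 79, 80 and 82 (FDR up to 0.114). The hour of tissue collection is not given per sample, so its part in these differences was not tested.

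Of 25 drug-metabolizing cytochromes and their regulators, 8 (32%, beside 5.59% of all genes) were lower and 0 higher (unadjusted: 4), with a median of -0.25. Without library 70 or 81, 1 was higher. Cyp3a11, the main drug-oxidizing P450, was 129 to 336 TPM (median 165) with BI 456906 and 235 to 1250.3 TPM (median 911) with semaglutide, a difference of -2.06 (SE 0.35, FDR = 0.000107) with overlapping groups. Cyp2c50 and Cyp2c54, which belong to a family of similar genes that can share reads, were lower at -1.01 (SE 0.14, FDR = 5.07e-06) and -1.79 (SE 0.33, FDR = 0.000314), and Cyp2d10 at -0.4 (FDR = 2.97e-05). Nr1i3, the receptor CAR that induces drug metabolism, differed by -0.37 (FDR = 0.0464), close to the threshold, and kept its call only without library 69, 70 or 81. Without library 70 or 81 the number lower was 11.

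Acute phase and complement genes were split, with 5 higher (20%, beside 4.15% of all genes) and 4 lower (16%, beside 5.59%) of 25. There were 3 higher without any one of libraries 67, 68, 69, 79, 80, 81 and 83. The copper oxidase ceruloplasmin, Cp, was 386 to 434 TPM (median 412) with BI 456906 and 493 to 599 TPM (median 575) with semaglutide, a difference of -0.46 (SE 0.06, FDR = 3.45e-07). Haptoglobin, Hp, was higher by 0.49 (SE 0.09, FDR = 0.000576). Orm3 was lower at -2.95 (SE 0.67, FDR = 0.00322), on overlapping values of 0.17 to 1.54 TPM (median 0.345) and 1.26 to 11.4 TPM (median 2.83). Of 22 antioxidant genes, 4 (18.2%, beside 5.59% of all genes) were lower and 1 (4.55%, near the 4.15% of all genes) higher. Without library 80, 2 were lower. Gclm, of glutathione synthesis, was lower at -0.32 (SE 0.06, FDR = 0.00098), a call not kept on log2 TPM, and Osgin1 at -1.2 (SE 0.33, FDR = 0.017), lost without library 80 (FDR = 0.0611). Catalase, Cat, had 964 to 1042 TPM (median 1026) against 1147 to 1504 TPM (median 1384), a difference of -0.4 (SE 0.06, FDR = 4.3e-05), and the metallothionein Mt1, a metal-binding protein, had 1606 to 2681 TPM (median 2327) against 512 to 1382 TPM (median 761), a difference of 1.41 (SE 0.36, FDR = 0.0088).

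Of 21 cell division genes, 3 (14.3%, beside 4.15% of all genes) were higher and 0 lower (unadjusted: 0), with 1 higher without library 69, 72, 79, 80 or 84. Ung, a DNA repair glycosylase, was 9.81 to 12.3 TPM (median 10.7) with BI 456906 and 3.09 to 8.78 TPM (median 4.55) with semaglutide, a difference of 1.1 (SE 0.16, FDR = 9.41e-06) without overlap, whereas the replication clamp Pcna at 0.19 (FDR = 0.0336) lost its call without library 67, 68, 69, 72, 79, 80 or 84 (FDR up to 0.0906) and Ccnd1 at 0.63 (FDR = 0.0466) without any library but 67 or 71 (FDR up to 0.146). With limma/voom 0 of 20 endoplasmic reticulum chaperones (unadjusted: 2, with 1 lower past the FDR with DESeq2 and 1 higher without library 83), 0 of 23 matrix and fibrosis genes (unadjusted: 1, with 1 lower past the FDR without library 71) and 0 of 19 interferon response genes (unadjusted: 1) passed in either direction, with medians of 0.05, -0.15 and -0.04.

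Cell type markers were read to see whether the makeup of the samples moved with the compounds. The summed hepatocyte markers were 89651 to 102598 TPM with BI 456906 and 81559 to 110933 TPM with semaglutide (adjusted exact p = 0.807, two-sided permutation over 924 arrangements, adjusted over 11 lists). Kupffer cell and macrophage markers summed to 199 to 420.1 TPM and 281 to 456 TPM, stellate cell markers to 157 to 238 TPM and 154 to 210.1 TPM and sinusoidal endothelial markers to 248 to 275 TPM and 243 to 307 TPM, each with overlapping groups and an adjusted exact p of 0.807. Red blood cell markers had the lowest p, at 902 to 1074 TPM against 913 to 1542 TPM (exact p = 0.026, adjusted 0.286), and 0 of its 5 genes passed the FDR. The adipocyte sum was at most 0.48 TPM with BI 456906 and 5.29 TPM with semaglutide, with 4 of 5 markers under 1 TPM in each library and Cfd (adipsin) lower at -4.07 (FDR = 0.0246). Lipid-associated macrophage markers summed to 47.2 to 116 TPM and 49.7 to 82.6 TPM, cholangiocyte markers to 12.2 to 24.4 TPM and 15.1 to 19.5 TPM, T, B and NK cell markers to 10.3 to 21.2 TPM and 10.4 to 16.2 TPM and neutrophil markers, of which Ly6g had 0 reads, to 2.13 to 5.2 TPM and 2.01 to 5.09 TPM. Besides Cfd, the single markers past the FDR, named after their values were seen, were Serpina1b (hepatocyte) at 0.2, Ttr (hepatocyte) at -0.23, Sox9 (cholangiocyte) at -0.66 and Cela2a (exocrine pancreas) at -1.45 on the log2 scale. The exocrine pancreas markers Cpa1, Pnlip and Amy2a5 had 0 reads in the 12 libraries. None of the 11 sums passed the adjusted test, and the part of cell makeup in the gene results was not tested further.

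Set beside vehicle, the genes that separated the compounds came to do so in different ways. Both compounds were compared with the same vehicle libraries, so the values are given side by side only. The mean level of Ass1 in vehicle mice was 2036 ± 337 TPM (SD, n = 6), and the BI 456906 doses from 3 through 10 and 20 up to 30 nmol/kg gave 2799 ± 557, then 3823 ± 458, 4581 ± 401 and 5161 ± 144 TPM. Semaglutide gave 2364 ± 502 TPM at the 20 nmol/kg dose and 2334 ± 479 TPM at the 100 nmol/kg dose, the latter 0.11 (FDR = 0.527) from vehicle on the log2 scale. Oat differed from vehicle in both directions, by 0.52 (FDR = 0.000877) with BI 456906 30 and -0.6 (FDR = 0.000245) with semaglutide 100. Cyp8b1 and Cyp2f2 were lower with BI 456906, at -1.32 (FDR = 5.95e-10) and -2.1 (FDR = 8.4e-13), and differed by -0.08 (FDR = 0.665) and -0.46 (FDR = 0.0203) with semaglutide. Ppargc1a was higher than vehicle with both, by 1.92 (FDR = 2.46e-13) and 1.19 (FDR = 4.17e-08), as was Slc7a2, by 2.68 (FDR = 6.24e-14) and 1.44 (FDR = 5.83e-08). Pklr was lower with both, at -2.5 (FDR = 1.08e-12) and -1.47 (FDR = 2.54e-07), as was Fitm1, at -2.37 (FDR = 1.78e-12) and -1.38 (FDR = 7.26e-08).

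**Figure D4:**
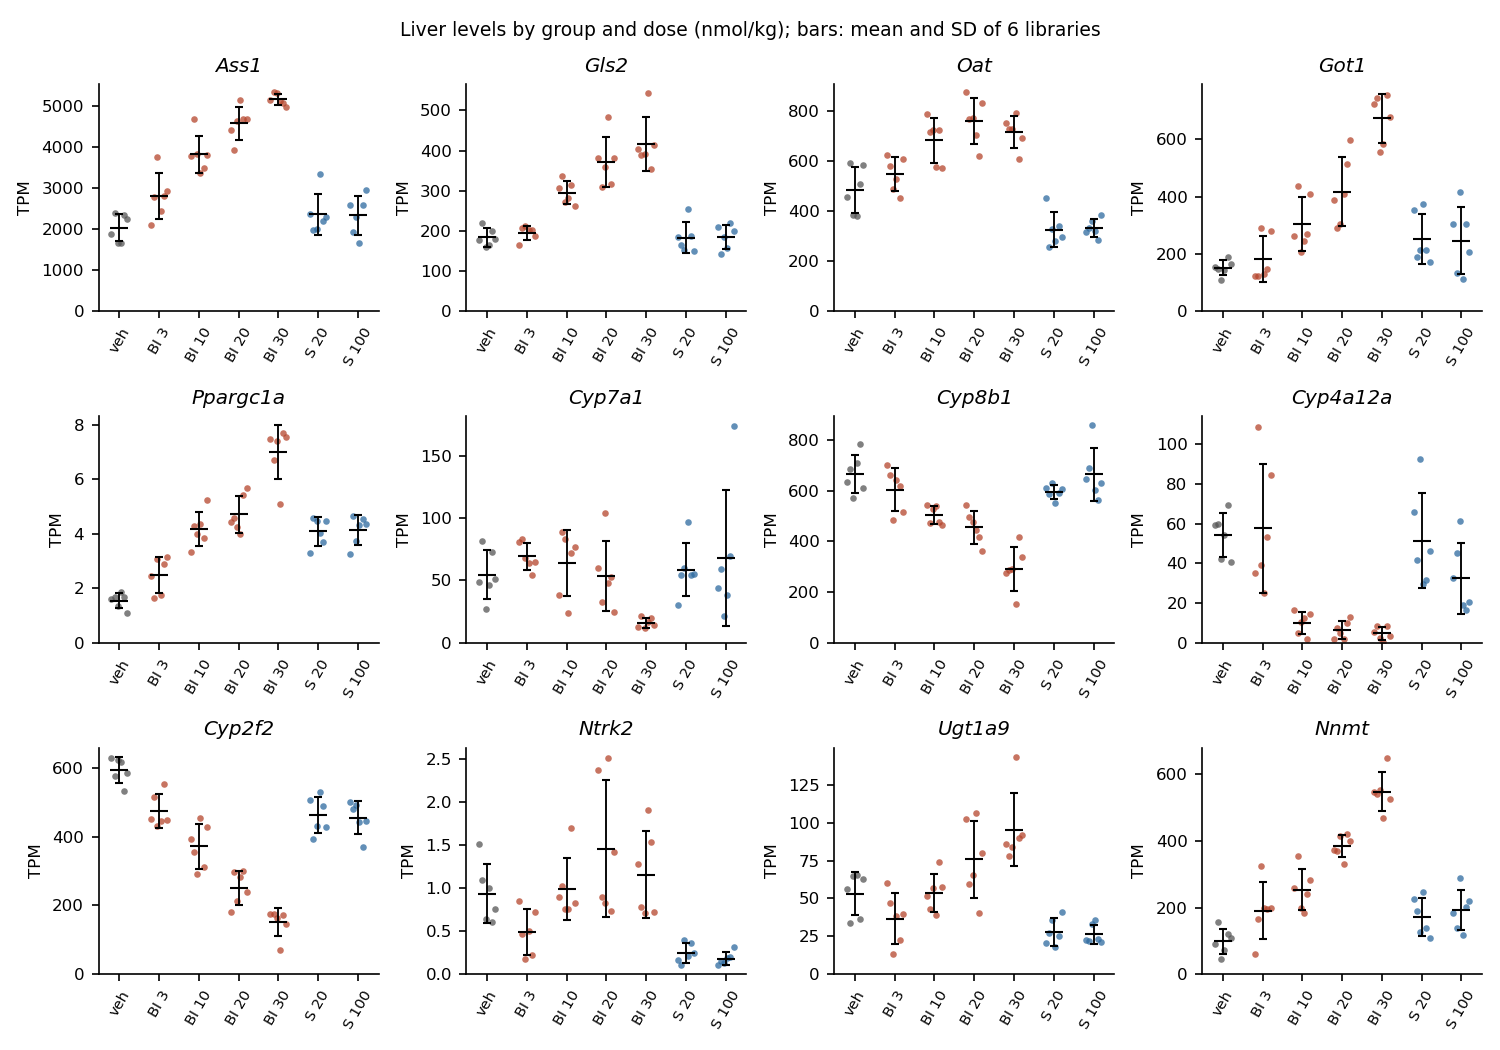
Liver levels (TPM, linear axes from 0) of 12 genes in each of the 42 libraries, by group on the x axis (veh, vehicle; BI, BI 456906; S, semaglutide; doses in nmol/kg), with the mean and SD of 6 libraries. Ass1, Got1 and Nnmt climb with the dose of BI 456906, Cyp8b1 and Cyp2f2 fall with it, Cyp7a1 is low at 30 nmol/kg, and in Ntrk2 and Ugt1a9 both semaglutide groups and BI 456906 at 3 nmol/kg have means below that of vehicle.

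The comparison of both compounds at 20 nmol/kg used other mice, 6 per group, so that it shares no library with the comparison at the high doses. There, 145 genes (0.908% of those tested) were higher with BI 456906 and 241 (1.51%) lower on FDR alone. Of the 253 genes called at the high doses, 221 had the same sign at 20 nmol/kg (87.4%, beside 59.7% of all genes tested). The FDR was passed by 83 of them in the same direction, 32 higher and 51 lower, and by 0 in the other direction (limma/voom), where 2 had an unadjusted p under 0.05. The median log2 fold change of the 98 genes called higher was 1.41 at the high doses and 0.63 at 20 nmol/kg, and that of the 155 called lower -1.46 and -0.76. The genes were chosen on their values at the high doses and not on those at 20 nmol/kg.

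Among the named genes, the difference was of similar size at both dose pairs in Oat, with 1.22 (FDR = 6.83e-08) for 20 nmol/kg, Gls2 at 1 (FDR = 1.06e-06), Ntrk2 at 2.52 (FDR = 0.000185), Tuba8 at 2.09 (FDR = 0.000247), Cyp4a12a at -3.31 (FDR = 0.000648) and Pklr at -1.05 (FDR = 0.000822). Genes that separated the compounds at the high doses and did not pass at 20 nmol/kg included Ciart at -0.38 (FDR = 0.79), Cyp7a1 at -0.26 (FDR = 0.812), Tat at 0.04 (FDR = 0.973), Sds at 0.48 (FDR = 0.361), Got1 at 0.74 (FDR = 0.17), Mt1 at 0.29 (FDR = 0.77) and Ppargc1a at 0.19 (FDR = 0.52). Whether the difference between compounds itself differed between the dose pairs was not tested. At 20 nmol/kg, where 0.908% of all genes were higher and 1.51% lower, the lists with the most higher genes were amino acid breakdown (7 of 54), the methionine cycle (5 of 21), acute phase and complement (5 of 25), secreted liver hormones (4 of 26), amino acid transport (3 of 22) and the urea cycle (3 of 14). The lists with the most lower genes were the male-biased genes (6 of 29), glucose uptake and glycolysis (5 of 18), the amino acid stress response (3 of 21, with 2 higher) and the cytochromes (3 of 25), whereas 2 of 29 bile acid genes were lower. With limma/voom 0 of 19 circadian clock genes (unadjusted: 1, lower) and 0 of 77 respiratory chain genes (unadjusted: 7 higher and 1 lower) passed there. The other lists had 0 to 2 genes past the FDR in each direction. Among them, the interferon response list had 1 of 19 higher (unadjusted: 12 higher and 0 lower), with a median log2 fold change of 0.54 at 20 nmol/kg.

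**Figure D5:**
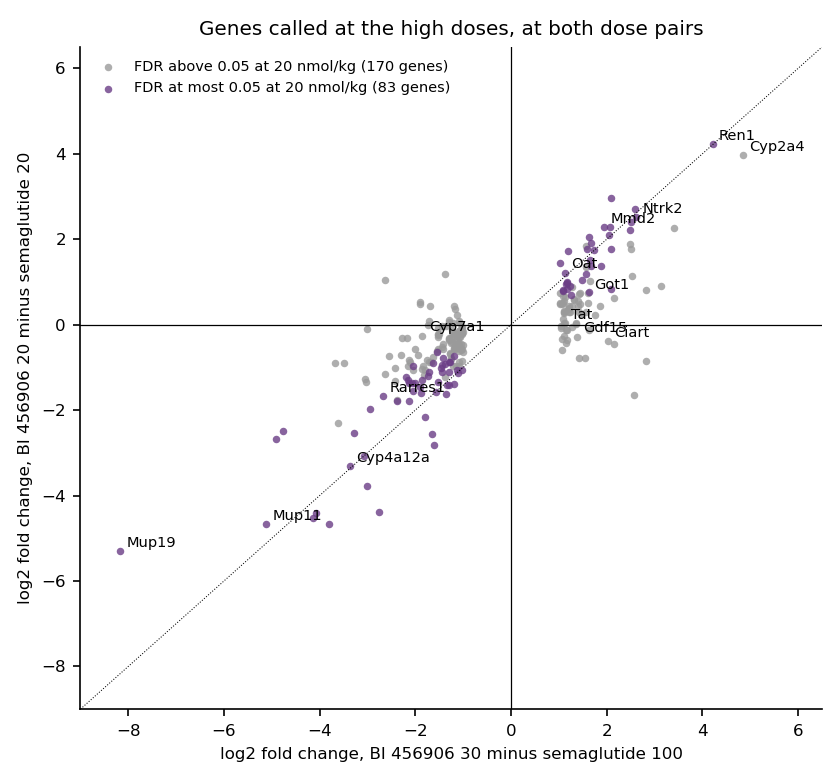
Each point is one of the 253 genes called at the high doses, with its log2 fold change between BI 456906 30 and semaglutide 100 on the x axis and between both compounds at 20 nmol/kg on the y axis, in purple where it passed the FDR there (83 genes). Most points (221 of 253) have the same sign on both axes, many closer to 0 on the y axis than the dotted line of equal values.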

How the data were processed

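Livers of DIO mice were taken after 30 days of dosing, and poly(A) RNA was sequenced. The labels name a SMART-Seq kit and single-end reads and the study's methods a directional kit and paired-end reads, so the library type is uncertain. The submitters' processing notes name STAR 2.5.2b, RSEM 1.3.0, featureCounts 1.5.1, FastQC 0.11.5 and the mouse build mm10 (GRCm38). The signal values deposited by the authors are gene counts divided by 1 factor per library. Within a tolerance of 0.01, 100% of the nonzero values were whole multiples of 1 step per library, from which whole reads were recovered. The second deposited table holds TPM as made by the authors, and the adipose tissue tables were not used.

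Differences were fitted with limma 3.58.1 and edgeR 4.0.16 in R 4.3.3 (voom with TMM factors, filterByExpr) on the deposited signal of all 42 liver libraries in 7 groups, with Benjamini-Hochberg adjustment over the 15964 genes tested. Alternatives were other factors (RLE or none), other filters, edgeR's quasi-likelihood test and DESeq2 1.42.0 on the recovered reads, voom on those reads, log2(TPM + 1) and log2(TPM + 0.1) in limma, the 12 libraries alone, sample quality weights and leaving out each library. The calling of genes with limma/voom, edgeR and DESeq2 was tested on simulated data with planted changes. The libraries are labelled as separate samples, but no label ties each to 1 animal, so p-values measure the spread between these samples. The 30 pairs of libraries within the groups compared all differed by more than counting noise, with a chi-square of 18.6 per degree of freedom for the closest pair.

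The members of the gene lists and the lists themselves were chosen with earlier results of these data known. Named were the 10 largest rises and falls among called genes with separate groups and a mean of at least 1 TPM, the 4 members of each list with the lowest FDR, and 26 genes whatever their values. A further 23 genes (Btg2, Slc25a25 and list members such as Nr4a1, Arg1, Sdsl, Elovl6 and Nr1h4), some Mup genes and the marker Cfd were named after their values were seen. Some of these genes are not reported here. A gene's symbol was taken from a reference list of gene names by its deposited gene identifier. Coordinates came from GENCODE M21 (GRCm38) and start site windows from RefSeq (GRCm38.p6), which held 32851 windows of 27025 genes.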

Additional observations from a re-analysis of the deposited data

Results flagged for a closer look

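Within each group of 6 libraries, the TPM values of the 145 named genes were read for a single library whose gap to its nearest neighbour exceeded the critical share of the range of the group (Dixon's criterion at 95%). This was met in 41 of 290 gene and group combinations, where chance gives about 1 in 20 groups. Of these, 14 fell to library 81 and 13 to library 70, and genes of 1 library are not independent of each other.

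Library 81 (semaglutide) was the highest of its group for Tat at 2711, Plin5 at 251.9, Igfbp1 at 1298, Slc7a2 at 184.3, AA986860 at 3.72, Slc25a51 at 156.5, Ren1 at 0.19, G6pc at 563.7 and Rasgef1b at 16.4 TPM. The same library was the lowest for Cp at 493.2, Pygl at 135.5, Soat2 at 14.29, Abcb11 at 121.3 and Gcsh at 53.3 TPM. Library 70 (BI 456906) was the highest of its group for Srebf1 at 60.13, Stat5b at 21.25, Pygl at 195.8, Gcgr at 183.9, Orm3 at 1.54, Cux2 at 23.97, Gls2 at 544.4, Cyp2a4 at 345.8, Gm13775 at 1.44, Ugt1a9 at 143.4 and Ddah1 at 33.65 TPM. The same library was the lowest for Cyp2f2 at 69.45 and Mup11 at 126.8 TPM.

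In library 67 (BI 456906), the highest value was Nox4 at 7.13 TPM. In library 68 (BI 456906), the highest value was Gstp2 at 17.29 TPM. In library 69 (BI 456906), the highest value was Gbe1 at 55.64 TPM. In library 71 (BI 456906), the highest value was Slc7a2 at 275.6 TPM. In library 72 (BI 456906), the highest value was Nr4a1 at 30.01 TPM. In library 72 (BI 456906), the lowest value was Cat at 964.4 and Rarres1 at 4.04 TPM. In library 82 (semaglutide), the highest value was Fetub at 553.3, Vnn1 at 163.7, Gdf15 at 19.79, Btg2 at 35.67 and Nr4a1 at 8.47 TPM. In library 83 (semaglutide), the highest value was Cux2 at 10.69 TPM. In library 84 (semaglutide), the highest value was Cyp7a1 at 174.1 TPM. Nr4a1 and Btg2 are both immediate early genes, and library 82 was the highest semaglutide library for both.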

How the results depend on the processing

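Against 253 genes called, a minimum of 10 in each of the 12 libraries gave 160 (64 higher, 96 lower), of which 153 were among the 253, log2(TPM + 1) gave 117 (46 higher, 71 lower), of which 106 were, and sample quality weights gave 391 (244 lower). With the weights, 3259 genes passed the FDR alone (1545 higher, 1714 lower) and 853 passed at 20 nmol/kg. Without a filter 417 genes were higher on FDR alone. Leaving out 1 library gave 197 to 328 called genes (76 to 128 higher, 121 to 200 lower) and 951 to 2041 past the FDR (380 to 905 higher, 571 to 1136 lower), in each case the fewest without library 80 and the most without library 81. The higher genes also fell to 423, 424, 409 and 407 without library 68, 69, 79 or 84, in that order. The count at 20 nmol/kg stayed at 360 to 429. The cause of these shifts was not tested. With edgeR's quasi-likelihood test 279 genes were called and with DESeq2 262, of which 228 and 202 were among the 253.

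Of the 133 named genes past the FDR, 95 passed with the same sign under each of 24 alternatives, 38 lost the call under some and 34 of these when 1 library was left out. 4 that had not passed did so under some (Igf1, Igfbp1, Pck1 and Pde4b), and 0 changed sign with a call. Of 56 counts of list members, 18 stayed within 1.5 times under all alternatives. The summed marker results, none past the adjusted threshold, were also not past it as a mean of log2(TPM + 1). No paired analysis was made, because the study randomized the mice to treatment groups and no label pairs libraries between the groups. The lowest depth, 30040300 reads in library 81, and low transcripts such as Ren1 limit the precision.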
